A study of Mus musculus with 2 samples.

Results

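Axon guidance genes encode the ligands and receptors that steer growing axons and, outside the nervous system, position migrating cells and vessels. They were taken here as every gene symbol of the semaphorin (*Sema3* to *Sema7*), plexin, neuropilin, Slit, Robo, Eph, ephrin, netrin and *Unc5* families in the deposited matrices, which gave 68 of 32285 genes. Of these, 35 encode ligands and 33 encode receptors or co-receptors. The matrices come from droplet single-cell RNA sequencing of mouse lung at postnatal day 14, with 1 mouse per group. Both mice carried the tamoxifen-inducible *Gli1creERT* driver, active in *Gli1*-expressing stromal cells, and a floxed *Hhip*, the genotype *Gli1 creER/+*:*Hhip flox/flox*. The control mouse received oil daily on the first 3 days from birth and the *Gli1 HHIPCKO* mouse received tamoxifen on the same days, which deletes *Hhip* only in cells that expressed the driver. *Hhip* encodes a membrane protein that binds and sequesters hedgehog ligands. Stromal cells free of CD45 and CD31 and epithelial cells positive for CD326 were sorted and mixed 3:1, so the share of each cell type reflects the sort.

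Semaphorins are secreted or membrane-bound ligands of the plexins, and most secreted ones also need a neuropilin as co-receptor. Slits are secreted ligands of the Robo receptors, netrins are laminin-related proteins that act through Unc5 and other receptors, and ephrins are tethered to the cell surface and signal to Eph receptor tyrosine kinases on the cell they touch. In the developing lung, members of all these families have been studied in airway branching, vessel growth and the building of the gas-exchange surface. The data were used to ask which lung cells carry each gene, and which genes differ between the library from the oil-treated mouse and that from the tamoxifen-treated mouse.

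The control library held 10999 cells with 43291709 UMIs (median 3531 per cell), and the *Gli1 HHIPCKO* library held 12350 cells with 52338969 UMIs (median 3720). After a filter of 200 to 6000 genes and at most 10% mitochondrial UMIs, 10917 and 12115 cells remained. The libraries shared 193 barcodes, which is 1.75% (control) and 1.56% (*Gli1 HHIPCKO*). *Xist*, transcribed from the inactive X chromosome of females, was found in 0.110% of cells (control) and 56.7% (*Gli1 HHIPCKO*), and *Ddx3y*, a Y-linked gene, in 11.9% and 0%. The sex of the animals therefore differs along with treatment, and with 1 mouse per group sex, treatment and library preparation cannot be told apart.

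Cells were clustered without the guidance genes and named from marker lists. The classes were named with "-like" and comprised ALMF-like (alveolar myofibroblast) and DMF-like (ductal myofibroblast) cells, peribronchial fibroblast and airway smooth muscle-like cells, adventitial and alveolar fibroblast-like cells, pericyte-like, mesothelial-like, alveolar type 2 (AT2)-like, ciliated-like, immune-like, red cell-like and a few endothelial-like and Schwann-like cells. In 13 named classes, no marker was at 0 in either library. Every marker of a class was higher there than in the other named cells of the same library, except that 11 of 12 ALMF markers were so in *Gli1 HHIPCKO*. The same markers had named the clusters, and unnamed cells were left out, so this is no independent check of the names. The fibroblast lists draw partly on signature genes that the study took from these same libraries. The 17 unnamed clusters, all kept out by a naming rule revised after the clusters were seen, held 2504 control cells (22.9%) and 2438 *Gli1 HHIPCKO* cells (20.1%). The largest unnamed stromal ones were led by *Rbp4* and *Pla2g7* (418 and 335 cells, scoring near both adventitial and alveolar fibroblasts), by *Ccn5* and *Prss23* (278 and 307 cells), by *Thbs2* and *Atrnl1* (109 and 240 cells of low depth) and by *C1qtnf3* and *Adh7* (177 and 103 cells).

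In the ALMF-like, the DMF-like and the AT2-like class, the cells of each library came mostly from different clusters, while adventitial fibroblast-like, mesothelial-like, ciliated-like, endothelial-like and red cell-like cells were each 1 cluster with cells of both libraries. ALMF-like cells numbered 1467 in control and 1003 in *Gli1 HHIPCKO*. A cluster led by *Stc1* and *Notum* held 959 and 60 of them, a cluster led by the immediate early genes *Fos* and *Junb* held 498 and 42, and a cluster led by *Lnx1* and *Chp2*, with *Egfem1* as its only leading ALMF marker, held 10 and 901. The *Lnx1* cluster scored 0.43 for ALMF markers and 0.30 for DMF markers, so its ALMF name is weak. DMF-like cells numbered 1240 and 1650. They came from a cluster led by *Enpp2* and *Prss35* (1218 and 20 cells), a cluster led by *Ace* and *Lgr6* (12 and 1085 cells) and a cluster led by *Junb*, *Socs3* and *Egr1* (10 and 545 cells). This last cluster had only 1 DMF marker among its leading genes, which also included *Lnx1*, *Chp2* and *Entpd1*, so its DMF name is weak. AT2-like cells split into a cluster led by *Ager* and *Sftpc* (2734 and 348 cells) and another led by *Lcn2* (140 and 2437 cells). *Ager* and *Aqp5*, both leading genes of the *Ager* cluster, are on the alveolar type 1 (AT1) marker list. AT1 markers scored 0.34 in the *Ager* cluster and 0.24 in the *Lcn2* cluster, against 2.20 and 2.25 for AT2 markers. Levels below are UMIs of a gene per 1000000 UMIs of its class and library (CPM), with exact Poisson 95% intervals in parentheses. Differences are log2 ratios of *Gli1 HHIPCKO* over control, with exact binomial 95% intervals. These intervals cover counting error only, there is no replicate check, and no test between the groups was possible.

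*Hhip*, the deleted gene, was lower in the *Gli1 HHIPCKO* library in most classes, stromal or not. In DMF-like cells it came to 1955 CPM (control) against 354 CPM (*Gli1 HHIPCKO*), with a log2 ratio of -2.46 (-2.54 to -2.39). Its ratio was -1.51 in ALMF-like, -1.74 in peribronchial and airway smooth muscle-like and -1.38 in alveolar fibroblast-like cells. It was also at least 2-fold lower in mesothelial-like (-1.73), pericyte-like (-1.45), AT2-like (-1.20), ciliated-like (-2.17), immune-like (-1.46) and red cell-like cells (-1.64), and whether free RNA carries the difference in these was not tested. Adventitial fibroblast-like cells had 94.4 and 72.3 CPM, a ratio of -0.39 (-0.77 to 0.00), with an interval that reaches 0.

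UMIs of the guidance genes summed to 62311 in the kept control cells and 86455 in the kept *Gli1 HHIPCKO* cells. No UMI was found for *Epha6* and *Epha10*, and 5 of the 68 genes, these among them, had under 50 UMIs in both files together (the others were *Slit1*, *Robo3* and *Plxnb3*). Of all 68, 45 are given below with their values: 39 that reached 50 CPM in some class in both libraries, and 12 that differed at least 2-fold in at least 1 of 6 main classes, with some genes in both groups. The share of all genes that did so in at least 1 of the 6 was not taken, so the 12 serve only to choose genes. Counts by class are given below beside the share of all genes. The 25 Schwann-like cells of each library and all unnamed cells are left out of every statement below on the highest or next class. Among these 45, the class with the highest level was the same in both libraries for 33. Endothelial-like cells held it for 16 of the 45 in control and 13 in *Gli1 HHIPCKO*, alveolar fibroblast-like cells for 8 and 8, adventitial fibroblast-like cells for 4 and 5, and mesothelial-like cells for 4 and 5. Endothelial-like cells are a residue of 135 and 93 cells left by the CD31 exclusion, so levels there are wide. No level is compared between genes, because UMI counts are not scaled by transcript length.

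**Figure D1:**
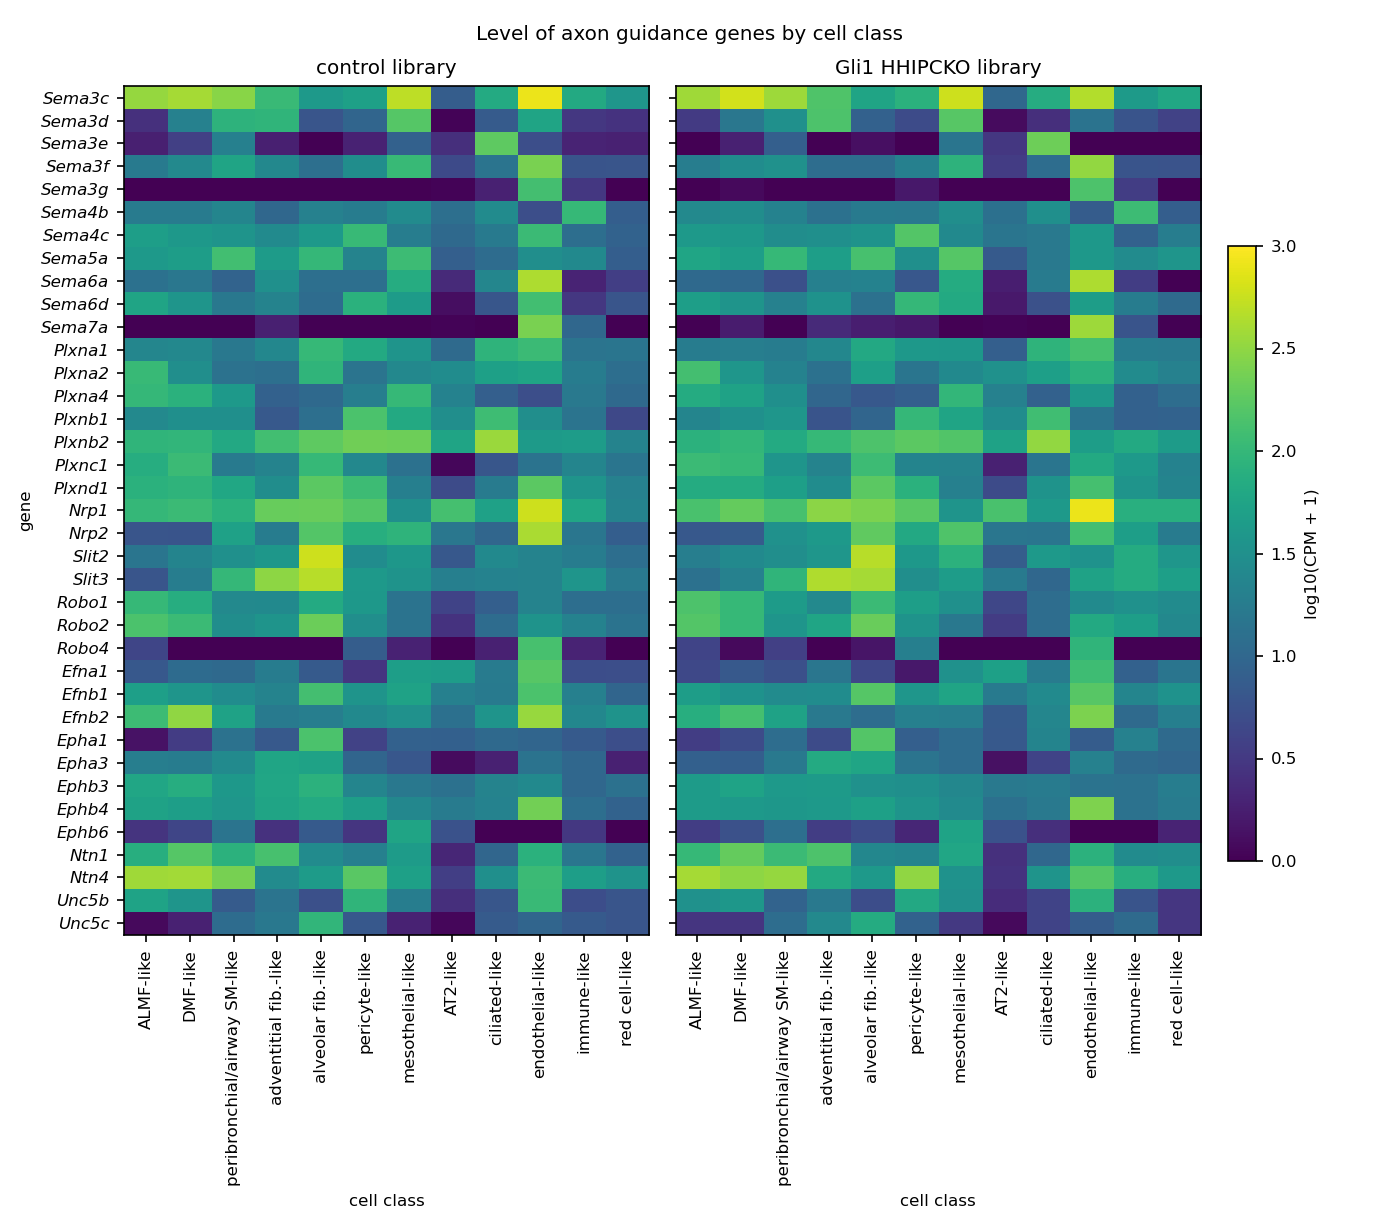
Level of the guidance genes that reached 50 CPM, by cell class (columns) and gene (rows), in the control library (left) and the *Gli1 HHIPCKO* library (right), on a log10(CPM + 1) colour scale, with 1 mouse per library. The plot shows *Slit2* brightest in alveolar fibroblast-like cells (585 and 479 CPM), *Sema3e* in ciliated-like cells (181 and 218 CPM) and *Sema7a* in endothelial-like cells (246 and 359 CPM).

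Of the Slits, *Slit2* and *Slit3* were highest in fibroblast classes. *Slit2*, a secreted repulsive ligand, stood at 585 CPM (541 to 631) among alveolar fibroblast-like control cells and 479 CPM (462 to 496) among those of *Gli1 HHIPCKO*. The next class had 37.3 CPM (adventitial, control) and 83.5 CPM (mesothelial, *Gli1 HHIPCKO*), so this gene set alveolar fibroblast-like cells apart from the other named classes in both libraries. Unnamed cells, some scoring near alveolar fibroblasts, are not in this comparison. When each cell was thinned to 2000 UMIs, 57.9% of 242 control and 58.8% of 1359 *Gli1 HHIPCKO* alveolar fibroblast-like cells had a *Slit2* UMI, against 0.963% and 1.57% of AT2-like cells. Without thinning the shares were 67.2% and 72.2% in alveolar fibroblast-like cells and 2.78% and 3.88% in AT2-like cells, whose median depths were 3096.5 and 3457 UMIs for the fibroblasts and 4842 and 5754 for AT2-like cells. *Slit3*, its relative, was shared by alveolar (475 CPM, 436 to 516, and 392 CPM, 376 to 407) and adventitial fibroblast-like cells (307 CPM, 277 to 340.3, and 442 CPM, 409.9 to 476). The order of these classes was reversed between the libraries, with the alveolar class higher in control and the adventitial class higher in *Gli1 HHIPCKO*, and the intervals did not overlap in either.

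*Robo1*, a Slit receptor, was highest in ALMF-like cells, at 102 CPM (93.1 to 111) in control and 142 CPM (129.6 to 156) in *Gli1 HHIPCKO*. It followed in DMF-like cells (73.4 and 101 CPM) and alveolar fibroblast-like cells (66.3 and 109 CPM). *Robo2*, another Slit receptor, was highest in alveolar fibroblast-like cells (211 CPM, 185 to 239.6, and 203 CPM, 192 to 214) and next in ALMF-like cells (139 CPM, 129 to 150.3, and 157 CPM, 143 to 171). Both receptors were thus carried by the myofibroblast classes, where *Slit2* stood at only 13.5 and 18.04 CPM (ALMF-like) and 21.4 and 25.8 CPM (DMF-like). *Robo4*, known from blood vessels, was found at 132 and 91.3 CPM in endothelial-like cells, from 31 and 14 UMIs, and at 6.70 and 18.6 CPM in the next class, pericyte-like cells.

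Among the secreted semaphorins, *Sema3c*, which signals through neuropilins and plexins, was found across several stromal classes. DMF-like cells carried 395 CPM (374 to 417) in control and 625 CPM (604 to 646) in *Gli1 HHIPCKO*, ALMF-like cells 336 and 373 CPM, peribronchial and airway smooth muscle-like cells 293 and 363 CPM and mesothelial-like cells 497 and 597 CPM. Its level in AT2-like cells was 6.61 and 9.10 CPM, and in alveolar fibroblast-like cells 41.0 and 55.2 CPM, so it separated myofibroblasts and mesothelium from both. Within the alveolar class it was uneven, at 8.09 CPM in the main cluster and 234 CPM in a small cluster led by *Cpm*. The endothelial-like level was 824 CPM (712 to 949) in control, above every other class, and 449.9 CPM (350.0 to 569) in *Gli1 HHIPCKO*, below that of DMF-like cells.

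*Sema3d* was highest in mesothelial-like cells, at 159 CPM (136 to 185) and 165 CPM (140.0 to 193), and next in adventitial fibroblast-like cells, at 92.0 CPM (75.6 to 111) and 143 CPM (125 to 163). Those intervals were apart in control and overlapped in *Gli1 HHIPCKO*, and in control the peribronchial and airway smooth muscle-like class (86.8 CPM) was not apart from the adventitial class. *Sema3e*, a ligand of Plexin D1, was found in ciliated-like cells at 181 CPM (157 to 207) and 218 CPM (184 to 257), with 19.5 CPM (peribronchial, control) and 13.7 CPM (mesothelial, *Gli1 HHIPCKO*) in the next class and 76.8 and 81.3 CPM in Schwann-like cells, from 5 and 6 UMIs. *Sema3f*, which acts through Neuropilin 2, was highest in endothelial-like cells (246 and 326 CPM) and next in mesothelial-like cells (103 and 85.6 CPM). *Sema3g* was almost restricted to endothelial-like cells (127 and 143 CPM, against at most 2.03 and 2.49 CPM in other named classes, leaving out Schwann-like cells). *Sema3b* reached 50 CPM only in Schwann-like cells, from 16 and 27 UMIs, and stood at 29.8 and 38.1 CPM in adventitial fibroblast-like cells.

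Among the membrane-bound semaphorins, *Sema5a*, which has thrombospondin repeats, lay in peribronchial and airway smooth muscle-like (121 and 102 CPM), mesothelial-like (112 and 161 CPM) and alveolar fibroblast-like cells (97.8 and 132 CPM). Their order was not resolved in control, while in *Gli1 HHIPCKO* the mesothelial-like interval lay above that of the peribronchial class. *Sema4c*, a ligand of Plexin B2, stood at 105 CPM (86.5 to 127) in control and 158 CPM (141 to 178) in *Gli1 HHIPCKO* pericyte-like cells, and at 110.5 and 39.1 CPM in endothelial-like cells. *Sema6d*, a ligand of Plexin A1, was also found in pericyte-like cells (80.3 and 97.5 CPM), and in control endothelial-like cells at 123.2 CPM (82.5 to 177), an interval overlapping that of pericyte-like cells. Endothelial-like cells carried *Sema6a*, a ligand of A-type plexins, at 425 and 424 CPM, and *Sema7a*, which is anchored to the membrane by a lipid, at 246 and 359 CPM. *Sema4b* was highest in immune-like cells (100.3 CPM, 81.6 to 122, and 112 CPM, 81.7 to 149.8), most of which were B cells by their leading genes *Ly6d* and *Cd79a*.

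Plexins, the semaphorin receptors, were found in nearly every class. *Plxnb2*, receptor of *Sema4c*, reached 50 CPM in more classes than any other plexin and peaked in ciliated-like cells (352 CPM, 318 to 388, and 329.6 CPM, 287 to 377), followed by pericyte-like cells (225 CPM, 197 to 255, and 174 CPM, 155 to 194). *Plxnb1*, the *Sema4d* receptor, had 141 CPM (119 to 165) and 98.0 CPM (84.2 to 113) in pericyte-like cells and 115 and 121 CPM in ciliated-like cells, with overlapping intervals in both libraries. *Plxnd1*, the *Sema3e* receptor, stood at 176 CPM (153 to 202) and 175 CPM (165 to 185) in alveolar fibroblast-like cells with endothelial-like cells not apart (174 and 130.4 CPM) and pericyte-like cells at 112 and 81.0 CPM. The *Sema3e* ligand and this receptor thus peaked in different classes. *Plxna2* was highest in ALMF-like cells (103 CPM, 93.9 to 112, and 126 CPM, 114 to 139), with intervals overlapping those of alveolar fibroblast-like cells in control (90.8 CPM) and of endothelial-like cells in *Gli1 HHIPCKO* (84.8 CPM).

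*Plxna4*, a receptor used with neuropilins, was not apart between mesothelial-like (101 and 96.2 CPM) and ALMF-like cells (99.2 and 69.3 CPM). *Plxnc1*, the *Sema7a* receptor, lay in ALMF-like (72.6 and 111 CPM), DMF-like (109 and 100.4 CPM) and alveolar fibroblast-like cells (102 and 114 CPM). *Plxna1* was highest in endothelial-like cells (110.5 and 130.4 CPM), not apart from alveolar fibroblast-like cells in control (101 CPM) or ciliated-like cells in *Gli1 HHIPCKO* (88.5 CPM). *Plxnb3* reached 50 CPM only in Schwann-like cells, from 5 UMIs in each library. Of the co-receptors, *Nrp1*, shared by secreted semaphorins and VEGF, was highest in endothelial-like cells (586 CPM, 493 to 693, and 808 CPM, 672 to 964), then in alveolar (206 and 252 CPM) and adventitial fibroblast-like cells (199.7 and 301 CPM), and was also found in AT2-like cells (129 and 138 CPM). *Nrp2*, the *Sema3f* co-receptor, peaked in endothelial-like cells of the control (412 CPM, 334 to 503) and in alveolar fibroblast-like cells of *Gli1 HHIPCKO* (184 CPM, 174 to 195.01, against 157 CPM, 135 to 182 in control), there with an interval overlapping that of mesothelial-like cells.

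The 12 Ephs and ephrins described here differed in the class where they were highest. *Efnb2*, a transmembrane ephrin known for marking arteries, stood at 340.0 CPM (269.6 to 423) in control endothelial-like cells and 315 CPM (296 to 334) in control DMF-like cells, which did not differ beyond counting error. In *Gli1 HHIPCKO* the same classes had 254 CPM (181 to 348) and 129 CPM (119.8 to 139), and the endothelial-like level was the higher. *Ephb4*, the venous receptor of *Efnb2*, was highest in endothelial-like cells (229 and 261 CPM) and stood at 47.6 and 41.5 CPM in DMF-like cells. *Efnb1* was shared by endothelial-like (140.2 and 163 CPM) and alveolar fibroblast-like cells (126 and 163 CPM). *Efna1*, an ephrin held by a lipid anchor, was highest in endothelial-like cells (166 and 117 CPM), with 44.5 and 49.1 CPM in AT2-like cells.

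*Epha1*, an Eph receptor, set alveolar fibroblast-like cells apart from the other named classes (139.7 CPM, 119 to 163, and 154 CPM, 145 to 164, with the next class at 12.4 and 21.4 CPM). *Epha8* was also highest in alveolar fibroblast-like cells (13.1 and 27.4 CPM). *Epha3*, a receptor of A-type ephrins, lay in adventitial (56.3 and 67.9 CPM) and alveolar fibroblast-like cells (53.2 and 57.3 CPM), which did not differ beyond counting error. *Ephb6*, an Eph receptor without kinase activity, marked mesothelial-like cells (55.8 CPM, 42.6 to 71.9, and 53.9 CPM, 40.1 to 70.9). *Efna5*, a lipid-anchored ephrin, was highest there too (34.4 CPM, 24.2 to 47.5, and 72.9 CPM, 56.7 to 92.3). *Epha7* was highest in AT2-like cells (26.5 and 27.5 CPM), though not apart from mesothelial-like cells (24.2 and 20.1 CPM). *Ephb3* was spread over the fibroblast and myofibroblast classes, highest in alveolar fibroblast-like cells in control (82.9 CPM) and in DMF-like cells in *Gli1 HHIPCKO* (54.5 CPM), neither apart from the next class. *Ephb2* set adventitial fibroblast-like cells apart from the other named classes in control only (38.1 and 14.0 CPM).

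*Ntn4*, a netrin of basement membranes, stood at 379 CPM (358 to 400.2) in DMF-like and 378 CPM (360.5 to 395) in ALMF-like cells of the control, with no difference beyond counting error. In *Gli1 HHIPCKO* ALMF-like cells had 389 CPM (368 to 412), above peribronchial and airway smooth muscle-like cells (331 CPM, 298 to 366). Against this, AT2-like cells had 2.57 and 1.72 CPM. *Ntn1*, a diffusible axon guidance cue, was highest in DMF-like cells (163 CPM, 149 to 177, and 196 CPM, 185 to 208) and next in adventitial fibroblast-like cells (132 CPM, 112 to 154, and 143 CPM, 125 to 163). Of the netrin receptors, *Unc5c* marked alveolar fibroblast-like cells (93.4 CPM, 76.5 to 113, and 70.0 CPM, 63.6 to 76.9). *Unc5b*, known from vessels, stood at 106 and 84.8 CPM in endothelial-like and 91.8 and 63.5 CPM in pericyte-like cells, not apart beyond counting error. *Unc5a* was low, with its control peak in ALMF-like cells at 14.96 CPM.

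Some of the highest levels moved over 1.5 times under at least 1 of 8 alternatives, mostly in the small endothelial-like class. *Nrp2* in control endothelial-like cells ran from 22.8 CPM (each library clustered on its own) to 612 CPM and kept its top class in 7 of 8. *Sema7a* in endothelial-like cells ran from 130.2 to 310.0 CPM in control and from 71.3 to 469 CPM in *Gli1 HHIPCKO*, and *Nrp1* from 299.5 to 678 CPM and from 326 to 1084 CPM. In *Gli1 HHIPCKO* endothelial-like cells *Sema3f* came down to 204 CPM and *Sema6a* to 255 CPM, while *Sema3g* went up to 224 CPM there and to 195.3 CPM in control. *Unc5b* in control endothelial-like cells came down to 49.4 CPM and lost the top place in 3 of 8 alternatives. Outside that class, *Plxna2* in *Gli1 HHIPCKO* ALMF-like cells ran from 68.8 to 240.0 CPM, *Epha3* in control adventitial fibroblast-like cells came down to 33.0 CPM and *Epha7* in control AT2-like cells went up to 41.0 CPM. Levels of *Sema3b*, *Sema6c*, *Plxnb3* and *Unc5a*, all low, also moved. The class with the highest level was the same in 661 of 720 values and moved in 59. It was kept least often for *Sema3b* (3 of 8 in control and 4 of 8 in *Gli1 HHIPCKO*) and control *Sema4c* (3 of 8). Control *Epha3* and *Gli1 HHIPCKO* *Efnb1* kept it in 4 of 8.

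The comparison of DMF-like cells asks how the guidance genes stood in ductal myofibroblasts, the class with the most *Hhip* in control. *Efnb2* and *Epha3* were at least 2-fold lower in *Gli1 HHIPCKO*, and every other guidance gene with enough UMIs, *Nrp1* and *Sema3c* among them, lay within 2-fold. *Efnb2* (ENSMUSG00000001300, chr8:8617434-8661242 on the minus strand, GRCm38) fell from 1059 UMIs, 315 CPM, to 731 UMIs, 129 CPM, a log2 ratio of -1.29 (-1.43 to -1.15). In cells thinned to 2000 UMIs, 34.7% of 981 control cells and 22.3% of 1478 *Gli1 HHIPCKO* cells had an *Efnb2* UMI (41.9% and 33.1% unthinned, at median depths of 2575 and 3225.5 UMIs), against 2.32% and 1.35% of thinned AT2-like cells (5.67% and 3.48% unthinned). By cluster, the level was 316 CPM in the control-rich cluster and 144 and 108 CPM in the *Gli1 HHIPCKO*-rich ones, so every DMF-like cluster rich in *Gli1 HHIPCKO* cells was lower. Without the cluster led by immediate early genes the ratio was -1.13, and with ALMF-like and DMF-like cells summed as 1 class it was -0.82, within 2-fold.

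*Epha3* stood at 17.2 CPM (13.1 to 22.3) and 6.88 CPM (4.89 to 9.41) in DMF-like cells, with a ratio of -1.33 (-1.95 to -0.71) on 58 and 39 UMIs. It was within 2-fold in 3 of 11 alternatives, at -0.73 with each library clustered on its own. *Nrp1* had 109 CPM (98.5 to 121) in control and 196 CPM (185 to 208) in *Gli1 HHIPCKO*, a ratio of 0.84 (0.67 to 1.02), short of 2-fold here and past it in 2 of 11 alternatives, up to 1.03. *Sema3c*, a ligand that uses it, had a ratio of 0.66 (0.57 to 0.75), and *Robo1* had 0.46 (0.24 to 0.68). *Plxna4* stood lower (-0.64, -0.88 to -0.39), as did *Ntn4* (-0.31, -0.41 to -0.20). Variation between mice is not in these intervals.

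Of the 68 guidance genes, 38 had at least 50 UMIs in DMF-like cells of both libraries together. None was at least 2-fold higher, where 3.01% of 10269 such genes were, and 2 were at least 2-fold lower (*Efnb2* and *Epha3*), where 2.18% among all genes were. The median log2 ratio of the 38 was -0.01, beside -0.03 over all genes. By family, 8 of 9 Ephs and ephrins lay below 0 (median -0.42), where 5487 of the 10269 genes did. Of the 8, *Efnb1* and *Ephb4* changed sign in some alternatives, to 0.21 and 0.04, and the other 6 did not. The semaphorins (11 genes, median 0.04) and plexins and neuropilins (10 genes, median 0.01) had no such lean by the median, though under the median-of-ratios scaling the semaphorins above 0 went from 6 to 9 of 11. Leaving out the stress-led cluster, or cells with the highest doublet scores, put 3 of 36 genes at least 2-fold higher (2.67% and 2.73% of all genes under the same settings) and 1 lower (2.28% and 2.27%). The 3 were *Sema3b*, *Sema4b* and *Nrp1* under both settings. *Sema3b* (0.91 here) was past 2-fold in 4 of 11 alternatives, with a lowest value of -0.11, and *Sema4b* (0.76 here) in 3. Under others *Plxna2* (up to 1.62) and *Epha7* (up to 1.67) were past 2-fold higher, and *Sema3d* (to -2.40) and *Efna1* (to -1.14) lower, so the higher count of 0 depends on the processing. *Plxna2* also came down to -0.38 and *Sema3d* up to 0.17, and they kept their sign in 7 and 8 of 11 alternatives.

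The ALMF-like comparison rests on a class whose *Gli1 HHIPCKO* cells come mostly from the cluster led by *Lnx1*. The ALMF name of that cluster is weak, so the ratios may set unlike cells against each other. Under 4 alternatives the class held far fewer *Gli1 HHIPCKO* cells, at 176 (at most 5% mitochondrial UMIs), 145 (resolution 0.5), 344 (each library clustered on its own) and 101 (guidance genes left in the clustering). Which cells left the class was not followed. *Unc5a* and *Epha3* were lower in *Gli1 HHIPCKO* under every alternative. *Unc5a*, a netrin receptor (ENSMUSG00000025876, chr13:54949411-55006018, plus strand), stood at 14.96 CPM (11.7 to 18.8) in control and 6.33 CPM (3.87 to 9.78) in *Gli1 HHIPCKO* from 73 and 20 UMIs, a log2 ratio of -1.24 (-2.03 to -0.51). Across the 11 alternatives its ratio ran from -2.75 to -1.10. *Epha3* (ENSMUSG00000052504, chr16:63543534-63864175, minus strand) stood at 18.04 CPM (14.5 to 22.2) and 7.28 CPM (4.61 to 10.9), a ratio of -1.31 (-2.04 to -0.63), and ran from -1.75 to -1.11. Both genes were therefore lower in each of the 11 alternatives, at levels of under 20 CPM in the main processing. No interval is given for the alternatives, and 4 of them rest on far fewer *Gli1 HHIPCKO* cells.

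*Unc5b*, a related netrin receptor, also stood lower in *Gli1 HHIPCKO* ALMF-like cells, at 54.1 and 32.0 CPM (-0.76, -1.10 to -0.42). *Efnb2* stood at 112 CPM (103 to 121) and 75.6 CPM (66.4 to 85.9), a ratio of -0.56 (-0.79 to -0.34) that kept its sign in 10 of 11 alternatives and was past 2-fold lower in 3, down to -2.16 at 5% mitochondrial UMIs. Its level was 171 CPM in the cluster led by *Fos* and *Junb*, which is mostly control cells, and 62.5 and 80.0 CPM in the other ALMF-like clusters, and without that cluster the ratio was 0.26. *Nrp1* (0.49, 0.30 to 0.68), *Robo1* (0.48, 0.30 to 0.67) and *Plxnc1* (0.61, 0.40 to 0.83) stood higher in *Gli1 HHIPCKO*. Their ratios stayed above 0 in every alternative, down to 0.19, 0.21 and 0.13.

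*Epha7*, an Eph receptor, and *Slit3* were past 2-fold higher in ALMF-like cells but at low levels, below those of AT2-like cells. They had enough UMIs for a ratio in only 5 and 6 of the alternatives, and were past 2-fold in 5 of each. *Epha7* had 4.10 and 9.81 CPM (1.26, 0.40 to 2.15) and stood at 26.5 and 27.5 CPM in AT2-like cells. *Slit3* had 5.12 and 12.03 CPM (1.23, 0.47 to 2.02), against 18.8 and 15.9 CPM in AT2-like cells and 15.5 and 47.9 CPM in red cell-like cells. Without the cells with the highest doublet scores the red cell-like levels came down to 4.12 and 7.13 CPM. Free RNA was not removed from these counts, and its part in these ratios was not tested.

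Of 34 guidance genes with 50 UMIs in ALMF-like cells, 2 were at least 2-fold higher (2.81% of 10052 genes of any kind) and 2 at least 2-fold lower (1.71% of all). The median log2 ratio was -0.01, beside 0.01 over all genes. All 4 Slits and Robos with enough UMIs lay above 0 (median 0.45), and 7 of 9 Ephs and ephrins lay below 0 (median -0.31), where 5148 of the 10052 genes lay above and 4904 below. Of these 13, the genes that changed sign in some alternatives were *Robo2* (to -0.08), *Efna2* (to 0.12), *Efna4* (to 0.16), *Efnb1* (to 0.66), *Efnb2* (to 0.26) and *Epha4* (to -0.59). *Ntn1* had a ratio of 0.42 (0.20 to 0.64), but ran from -1.04 (resolution 0.5) to 1.06 (stress-led clusters left out) and kept its sign in only 7 of 11 alternatives. Genes within 2-fold here that passed it in at least 1 alternative were also *Sema4b* (to -1.42), *Plxna2* (to 1.16), *Plxnb1* (to -1.41), *Efna4* (to -2.83), *Ephb3* (to -1.27), *Unc5b* (to -1.07) and *Ntn3* (to 1.02). The counts of higher and lower genes moved too, to 0 and 8 of 30 at resolution 0.5 (2.2% and 4.24% of all genes). They were 0 and 5 of 30 with the guidance genes left in the clustering (2.69% and 6.61%). At 5% mitochondrial UMIs they were 1 and 4 of 30 (2.43% and 4%).

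**Figure D2:**
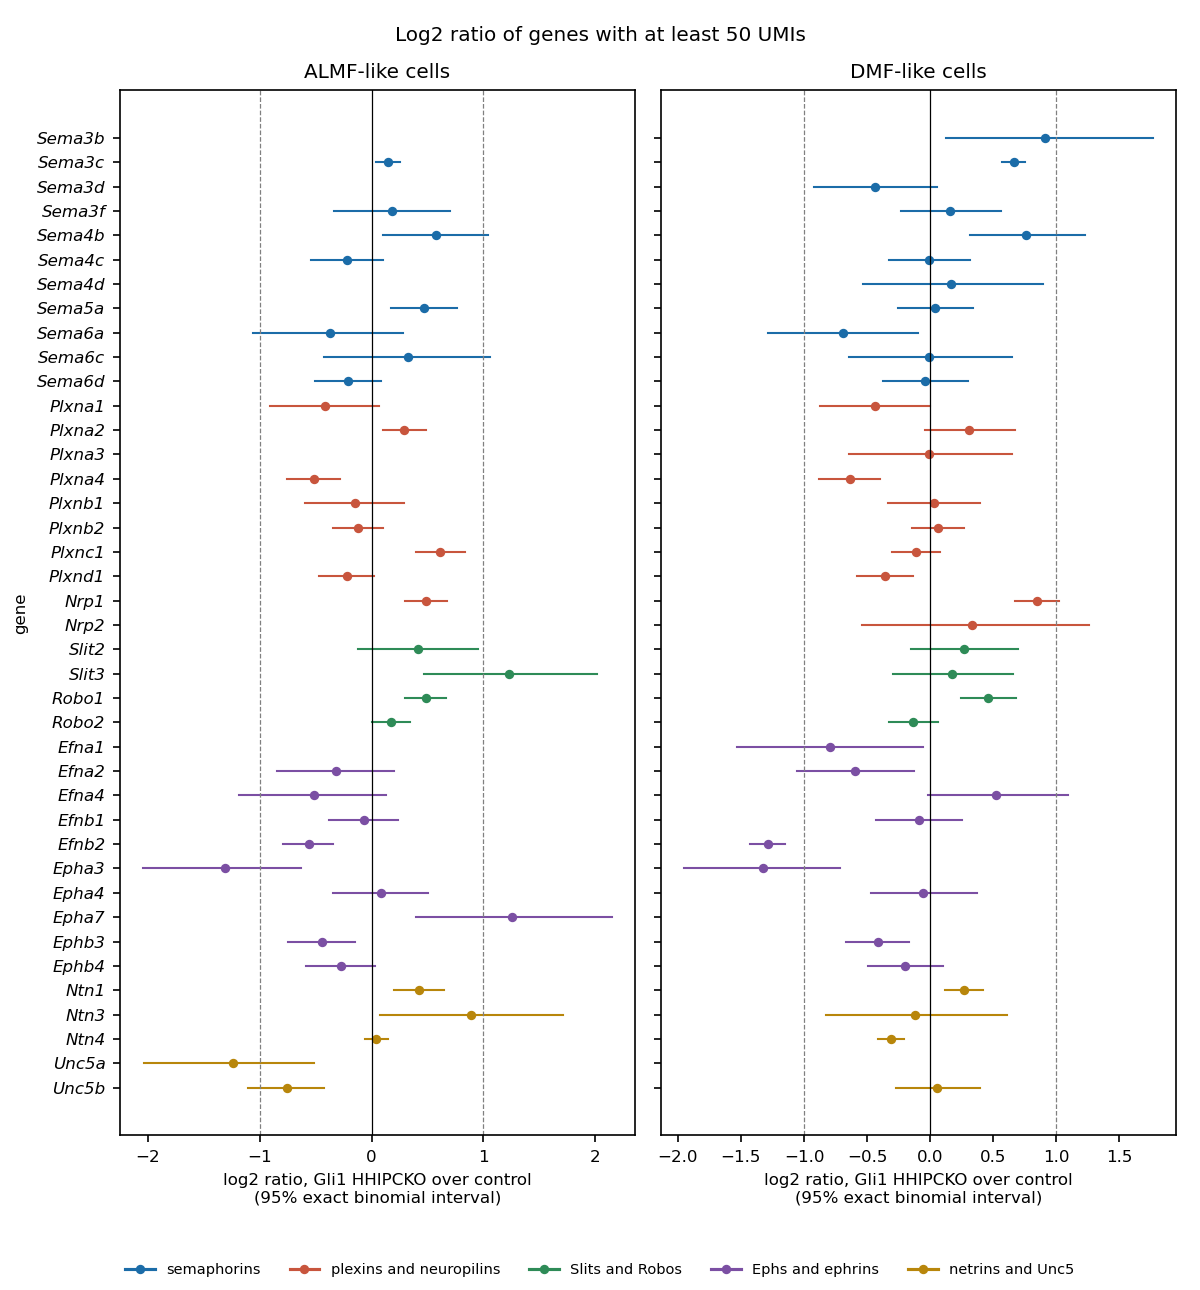
Log2 ratio of *Gli1 HHIPCKO* over control for each guidance gene with at least 50 UMIs in ALMF-like cells (left, 34 genes) and DMF-like cells (right, 38 genes). Bars are exact binomial 95% intervals of counting error with 1 mouse per library, colours are gene families and dashed lines mark 2-fold, which *Efnb2* in DMF-like cells passes at -1.29 with its whole interval.

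In alveolar fibroblast-like cells, *Ephb3* was lower in *Gli1 HHIPCKO* and the main markers *Slit2*, *Slit3*, *Epha1* and *Plxnd1* lay well within 2-fold. *Ephb3*, a receptor of B-type ephrins (ENSMUSG00000005958, chr16:21204755-21223305, plus strand), stood at 82.9 CPM (67.1 to 101) in control and 32.1 CPM (27.8 to 36.8) in *Gli1 HHIPCKO*, from 95 and 201 UMIs in 354 and 1696 cells. Its log2 ratio was -1.37 (-1.73 to -1.003), and in 9 alternatives it ran from -1.46 to -1.25, always past 2-fold. After thinning to 2000 UMIs, 15.3% of 242 control and 5.96% of 1359 *Gli1 HHIPCKO* cells had an *Ephb3* UMI (22.0% and 10.7% unthinned), against 2.42% and 2.73% of thinned AT2-like cells (5.74% and 8.55% unthinned). *Ephb3* also stood lower, within 2-fold, in ALMF-like (-0.45, -0.75 to -0.15), DMF-like (-0.42, -0.66 to -0.17) and adventitial fibroblast-like cells (-0.47, -0.97 to 0.03). In AT2-like cells it stood higher (0.35, 0.07 to 0.64). The difference between these classes was not tested.

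*Slit2* and *Slit3* had ratios of -0.29 (-0.41 to -0.17) and -0.28 (-0.41 to -0.14) in alveolar fibroblast-like cells, and *Slit2* turned to 0.16 with each library clustered on its own. *Robo1* stood higher, at 66.3 and 109 CPM (0.72, 0.37 to 1.08), and *Robo2* close to equal (-0.06, -0.26 to 0.15). *Plxna2* and *Plxna1* stood lower (-0.90, -1.23 to -0.56, and -0.67, -0.97 to -0.36). *Epha1* was at 0.14 (-0.10 to 0.40).

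*Epha8*, an Eph receptor, *Sema6c* and *Efna5* were past 2-fold higher on few control UMIs. *Epha8* stood at 13.1 CPM (7.33 to 21.6) and 27.4 CPM (23.5 to 31.9) from 15 and 172 UMIs, a ratio of 1.07 (0.31 to 1.94), and stayed past 2-fold in 5 of 9 alternatives, with a lowest value of 0.83. *Sema6c* and *Efna5* each had 4 control UMIs, and their ratios were 1.07 (-0.38 to 3.01) and 1.43 (0.00 to 3.35), both with intervals that reach 0. *Sema6c* came down to 0.11 with each library clustered on its own and *Efna5* to 0.16 without the cells with the highest doublet scores, so neither was resolved at this depth. Of 35 guidance genes with 50 UMIs, 3 were at least 2-fold higher (2.56% of 9753 genes of any kind) and 1 at least 2-fold lower (2.04% of all), with a median of -0.09 beside -0.01 over all genes. Within 2-fold here but past it in at least 1 alternative were *Sema3d* (from -1.35 to 1.46), *Sema6d* (to 1.18), *Plxnb1* (to -1.45) and *Ephb2* (to -1.27). The class grew from 3.24% to 14.0% of kept cells, a share that its sort and the 1 animal per group can set.

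Adventitial fibroblast-like cells came from 1 cluster, with 345 control and 474 *Gli1 HHIPCKO* cells, and *Hhip* changed little there. *Ephb2* was lower, and *Ntn4*, *Nrp2* and *Efna5* were higher. *Ephb2*, a receptor of B-type ephrins (ENSMUSG00000028664, chr4:136647539-136835988, minus strand), stood at 38.1 CPM (27.9 to 50.8) in control and 14.0 CPM (8.75 to 21.1) in *Gli1 HHIPCKO*, from 46 and 22 UMIs. Its ratio of -1.45 (-2.25 to -0.69) stayed past 2-fold in 9 of 9 alternatives. *Ntn4* (ENSMUSG00000020019, chr10:93640681-93747207, plus strand) stood at 27.3 CPM (18.8 to 38.4) and 65.3 CPM (53.3 to 79.2), a ratio of 1.26 (0.68 to 1.87), past 2-fold in 7 of 9 alternatives. Its control level there was no higher than in red cell-like cells (33.7 and 40.1 CPM) or immune-like cells (46.6 and 74.6 CPM).

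*Nrp2* had 17.4 and 39.3 CPM (1.18, 0.44 to 1.97) but fell within 2-fold in 5 of 9 alternatives, to 0.22 at 5% mitochondrial UMIs. *Efna5* had 10.8 and 24.1 CPM (1.16, 0.22 to 2.19), with a lowest value of 0.86. Among abundant genes, *Slit3* (0.52, 0.34 to 0.71), *Nrp1* (0.59, 0.37 to 0.82) and *Sema3d* (0.63, 0.30 to 0.98) stood higher in *Gli1 HHIPCKO*. Their intervals lie above 0, yet none of them reached 2-fold.

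Of 27 guidance genes with 50 UMIs in adventitial fibroblast-like cells, 3 were at least 2-fold higher, where 2.93% of 6816 genes among all genes were, and 1 was at least 2-fold lower, where 0.939% among all genes were. The median was 0.20, beside 0.06 over all genes. Of the 13 ligands 11 lay above 0, and of the 14 receptors 7, where 3817 of the 6816 genes did, and the difference between ligands and receptors was not tested. Ligands that changed sign in some alternatives were *Efnb1* (to -0.12), *Sema4c* (to -0.16), *Sema5a* (to -0.04), *Sema6a* (to 0.03) and *Slit2* (to 0.99), and receptors were *Plxna1* (to -0.45), *Plxnb2* (to 0.07), *Plxnc1* (to -0.32), *Plxnd1* (to 0.68) and *Robo1* (to 0.53). At resolution 0.5 the class took in more cells (802 and 853) and no guidance gene was at least 2-fold higher.

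Pericyte-like cells numbered 484 and 815 and had no guidance gene past 2-fold in either direction. *Ntn4* came nearest, at 168 CPM (144 to 195.12) in control and 317 CPM (292 to 344) in *Gli1 HHIPCKO*, a ratio of 0.91 (0.67 to 1.17). It was past 2-fold in 3 of 9 alternatives, up to 1.19, and *Sema3c* (up to 4.01 in 8 alternatives), *Sema5a* (up to 1.39) and *Ntn1* (up to 1.18) were past it in at least 1. The class was mixed, and *Sema3c* stood at 12.7 CPM in its main cluster (428 and 706 cells). A small cluster scoring next for ALMF (37 and 79 cells) had 285 CPM. Another scoring next for alveolar fibroblasts (19 and 30 cells) had 50.4 CPM. In thinned cells 26.5% of 219 and 44.3% of 379 had an *Ntn4* UMI (25.6% and 43.8% unthinned), against 0.499% and 0.473% of thinned AT2-like cells (1.22% and 0.969% unthinned). *Sema4c* also stood higher (0.59, 0.27 to 0.92), while *Plxnb2*, its receptor, stood lower (-0.37, -0.62 to -0.12), as did *Plxnb1* (-0.52, -0.84 to -0.20), *Plxna1* (-0.78, -1.28 to -0.28), *Plxnd1* (-0.47, -0.83 to -0.10) and *Unc5b* (-0.53, -0.93 to -0.13).

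Plexins and neuropilins in pericyte-like cells had 6 of 7 below 0 and a median of -0.37, where 3429 of 7680 genes lay below 0. *Plxnc1* among them turned to 0.20 as a mean over cells. Its UMIs came mostly from the small clusters of the class (35 and 22 UMIs, against 7 in the main one). *Nrp1* was the exception (0.10, -0.18 to 0.38). Of 24 guidance genes with 50 UMIs, 0 were at least 2-fold higher (2.06% of 7680 genes of any kind) and 0 at least 2-fold lower (0.625% of all). The median of the 24 was 0.05, beside 0.04 over all genes, and the semaphorins had a median of 0.40 with 5 of 6 above 0, or 4 of 6 under the median-of-ratios scaling, and *Sema4g* (0.01) kept its sign in 4 of 9 alternatives.

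AT2-like cells held the most UMIs of any class, 14371519 and 16817400, and no guidance gene passed 2-fold in them. *Efnb2* was the nearest, at 11.97 CPM (10.2 to 13.9) and 6.01 CPM (4.89 to 7.30), a ratio of -0.99 (-1.36 to -0.63) that was past 2-fold in 6 of 9 alternatives. This level is far below that of DMF-like cells, and *Efnb2* also stood lower in red cell-like cells (-0.86, -1.73 to -0.03). Whether free RNA from other cells carries this difference was not tested. *Nrp1* (0.09, 0.00 to 0.18), *Plxnb2* (-0.07, -0.21 to 0.07) and *Efna1* (0.14, -0.01 to 0.29) were nearly equal, within narrow intervals. *Sema4f*, a membrane-bound semaphorin highest in AT2-like cells, stood at 23.6 and 16.2 CPM (-0.54, -0.78 to -0.31). Of 39 guidance genes with 50 UMIs, 0 were at least 2-fold higher (1.52% of 10969 genes of any kind) and 0 at least 2-fold lower (0.912% of all), and the median was 0.05, beside 0.01 over all genes.

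In peribronchial, mesothelial-like, endothelial-like, ciliated-like, immune-like and red cell-like cells only ratios past 2-fold were run under the alternatives. In peribronchial fibroblast and airway smooth muscle-like cells (295 and 337 cells), *Sema3d* was lower, at 86.8 CPM (70.4 to 106) and 31.3 CPM (21.8 to 43.5), a ratio of -1.47 (-2.07 to -0.90), and *Plxnc1* higher, at 15.9 CPM (9.44 to 25.2) and 35.8 CPM (25.5 to 48.7), a ratio of 1.17 (0.33 to 2.06). These were the only guidance genes past 2-fold among 22 with 50 UMIs, beside 2.36% higher and 1.58% lower of 6564 genes of any kind. *Sema3d* stayed past 2-fold in 8 of 9 alternatives (-0.71 with the guidance genes left in the clustering) and *Plxnc1* in 7 of 8 (0.75 with each library clustered on its own). In adventitial fibroblast-like cells *Sema3d* stood higher, and the difference between the classes was not tested. *Ntn4* stood higher (0.47, 0.24 to 0.70), as in pericyte-like cells, and *Efnb2* was equal (0.01, -0.53 to 0.56).

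In mesothelial-like cells (288 and 304 cells), *Slit2* stood at 37.2 CPM (26.6 to 50.7) and 83.5 CPM (66.1 to 104), a ratio of 1.17 (0.60 to 1.75) and *Efna5* at 34.4 CPM (24.2 to 47.5) and 72.9 CPM (56.7 to 92.3), a ratio of 1.08 (0.49 to 1.70). They were the 2 of 25 guidance genes at least 2-fold higher, beside 2.17% of 6130 genes of any kind, and 0 were at least 2-fold lower, beside 1.22%. *Slit2* stayed past 2-fold in 9 of 9 alternatives (1.08 to 1.38) and *Efna5* in 8 of 9 (0.93 with each library clustered on its own). *Nrp2* (0.74, 0.36 to 1.13) and *Sema5a* (0.52, 0.17 to 0.88) also stood higher, and *Plxnb2* lower (-0.50, -0.81 to -0.19). *Sema3c* had a ratio of 0.26 (0.09 to 0.44).

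Among endothelial-like cells, 0 of 13 guidance genes were at least 2-fold higher (2.81% of 1599 genes of any kind) and 1 was at least 2-fold lower (2.31% of all). It was *Nrp2*, at 412 CPM (334 to 503) and 124 CPM (74.6 to 193), a ratio of -1.73 (-2.53 to -1.01) on 97 and 19 UMIs. It stayed past 2-fold in all 8 alternatives with 50 UMIs (-2.09 to -1.63). With each library clustered on its own, *Nrp2* was too rare for a ratio in the cells then named endothelial-like (118 and 98), with levels of 22.8 CPM (control) and 106 CPM (*Gli1 HHIPCKO*), the opposite order. *Nrp1* stood higher in the same cells (0.46, 0.10 to 0.82) and *Sema3c* lower (-0.87, -1.29 to -0.47). These are 135 and 93 cells that escaped a sort against CD31, and whether the same kinds of vessel cell are present in both libraries was not tested.

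Neither ciliated-like cells (11 genes with 50 UMIs) nor immune-like cells (7 genes) had a guidance gene past 2-fold. The shares among all genes were 0.949% higher and 1.18% lower of 6112 genes in ciliated-like cells, and 3.06% and 3.39% of 4931 genes in immune-like cells. *Sema3e*, the ciliated-like ligand, had a ratio of 0.27 (-0.05 to 0.59) and *Sema4b*, highest in immune-like cells, 0.16 (-0.38 to 0.68). In red cell-like cells *Nrp1*, *Slit2*, *Slit3* and *Plxnb2* were at least 2-fold higher, 4 of 7 genes with 50 UMIs, but so were 22.3% of 2605 genes of any kind, and 0 were lower beside 1.34% of all. Haemoglobin made up 647423 CPM (control) and 537811 CPM (*Gli1 HHIPCKO*) of red cell-like cells, and the median ratio of all genes was 0.59. With a total without mitochondrial, haemoglobin and surfactant protein genes the ratios were 1.49 (*Nrp1*), 1.32 (*Slit2*), 1.22 (*Slit3*) and 0.65 (*Plxnb2*). How far the haemoglobin share carries the ratios was not tested. Under the median-of-ratios scaling *Plxnb2* came to 0.61, and it was past 2-fold in 3 of 8 alternatives, while the other 3 stayed past 2-fold wherever they had 50 UMIs. Without the cells with the highest doublet scores all 4 had too few UMIs. There *Slit3* came to 0.79 (4.12 and 7.13 CPM), within 2-fold. *Nrp1* (1.88, 8.25 and 30.3 CPM), *Slit2* (2.70, 1.37 and 8.91 CPM) and *Plxnb2* (1.70, 8.25 and 26.7 CPM) did not, at levels below those of the main processing. In the 25 Schwann-like cells of each library 0 guidance genes had 50 UMIs, so 0 were higher and 0 lower, beside 6.22% and 3.37% of 386 genes.

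**Figure D3:**
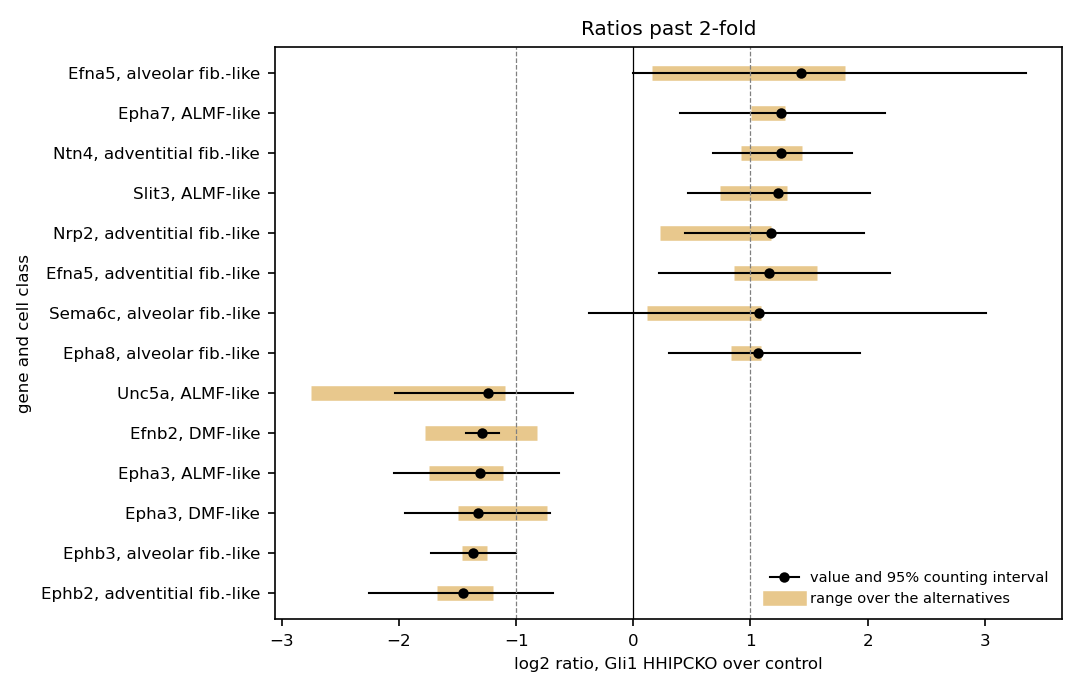
Log2 ratio of *Gli1 HHIPCKO* over control for each guidance gene past 2-fold in ALMF-like, DMF-like, alveolar or adventitial fibroblast-like cells (14 gene and class pairs). Bars are exact binomial 95% intervals of counting error with 1 mouse per library, shading is the range over the processing alternatives and dashed lines mark 2-fold, which *Ephb3* in alveolar fibroblast-like cells passes throughout (-1.46 to -1.25).

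Genes that work with the guidance receptors inside or beside them were taken as a list of 70, among them *Dcc* and *Neo1* (netrin receptors), the adhesion molecule *Nrcam*, and the cytoskeletal effectors *Rhoa*, *Rac1* and *Cdc42*. In ALMF-like cells 47 had 50 UMIs, 0 were at least 2-fold higher and 0 lower (2.81% and 1.71% of all genes), and the median was 0.00. In DMF-like cells 51 had 50 UMIs, 0 were at least 2-fold higher and 1 lower (3.01% and 2.18% of all genes), and the median was 0.02. That gene was *Nrcam*, a cell adhesion molecule that joins neuropilin complexes, at 111 and 51.7 CPM in the libraries, a ratio of -1.10 (-1.33 to -0.88). In peribronchial and airway smooth muscle-like cells 1 of 37 was higher and 2 lower (2.36% and 1.58% of all genes), in alveolar fibroblast-like cells 0 of 49 and 1 (2.56% and 2.04%), in pericyte-like cells 1 of 39 and 0 (2.06% and 0.625%) and in adventitial fibroblast-like cells 0 of 40 and 0 (2.93% and 0.939%). The middle part of the ratios (quartiles) ran from -0.31 to 0.13 in DMF-like cells for this list and from -0.35 to 0.24 for the guidance genes.

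*Gli* factors carry hedgehog signals to the genome, so the promoters of the guidance genes were searched for their binding sequence. Windows from 250 bases before to 50 after the gene start, from RefSeq (GRCm38.p6), were found for 59 of the 68 genes, 75 windows in all. The letters GACCACCCA, a Gli consensus, were found on either strand in 83 of 32851 windows of all genes (0.253%) and in 0 of the 75. The shorter CACCCA, which lies within it and was chosen after matches of other strings were seen, was found in 7301 windows (22.2%) and in 19 of the 75 (25.3%), from 17 genes. These are matches of letters and not sites, and nothing follows from them about the factors. The windows of *Efnb2* and *Ntn4* are printed because, of the genes past 2-fold whose window holds the shorter sequence, these had the most UMIs in the class concerned. They cover chr8:8661193-8661492 on the minus strand and chr10:93640799-93641098 on the plus strand, each 300 bases, 5′ to 3′, with the match, here its reverse complement, in capitals. The RefSeq start used for *Ntn4* differs from the start given above (chr10:93640681), and its window lies inside that gene span.
Efnb2: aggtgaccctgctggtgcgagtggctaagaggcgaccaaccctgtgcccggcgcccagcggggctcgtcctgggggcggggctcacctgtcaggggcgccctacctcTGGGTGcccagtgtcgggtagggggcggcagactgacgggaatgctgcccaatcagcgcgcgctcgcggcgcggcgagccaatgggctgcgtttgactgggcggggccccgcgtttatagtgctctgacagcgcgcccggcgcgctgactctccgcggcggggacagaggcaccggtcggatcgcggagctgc
Ntn4: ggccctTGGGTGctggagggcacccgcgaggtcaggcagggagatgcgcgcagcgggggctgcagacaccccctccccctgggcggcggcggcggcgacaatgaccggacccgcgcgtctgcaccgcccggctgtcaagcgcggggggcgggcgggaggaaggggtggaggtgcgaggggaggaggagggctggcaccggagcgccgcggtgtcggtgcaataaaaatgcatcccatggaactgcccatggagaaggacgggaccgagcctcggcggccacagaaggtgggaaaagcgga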

How the data were processed

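Cells were captured with a 5′ kit per the methods and series design, while the sample labels word it as a 3′ v2 kit. The deposited values are UMI counts per gene and cell, made by the authors with CellRanger 6.1.0 per the file headers and with Cell Ranger 3.1.0 per the submitters' notes (STAR, mm10). Cells passing the filter (200 to 6000 genes, mitochondrial share up to 10%) were log-normalized and clustered together (2000 variable genes, 30 components, 20 neighbours, Leiden resolution 1), with 148 genes held out (the guidance genes, the wider list, *Hhip*, *Acta2*, *Igf1*, *Cdkn1a* and sex-linked genes). Clusters were named by marker scores under a rule revised more than once after the clusters were seen. The members and lists were chosen with earlier results of these data known. Likely doublets stayed in and were left out in an alternative. UMIs were summed per class and library and divided by the total. Genes are named with values where they reached 50 CPM in a class in both libraries or passed 2-fold (at least 50 UMIs) in 6 main classes, and a few others are named beside them. A count of 0 took a floor of 3. Ratio intervals were run on simulated, independent Poisson counts only. That run checks the calculation and cannot show how the intervals hold where UMIs clump in cells or clusters. There is 1 mouse per group, so no test between groups was made. Software was Python 3.11.15 with matplotlib 3.10.9, leidenalg 0.10.2, igraph 0.11.9, scikit-learn 1.9.0, scipy 1.17.1 and numpy 2.4.6.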

Additional observations from a re-analysis of the deposited data

How the results depend on the processing

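The data were processed in 11 other ways, 10 planned and 1 (clusters led by immediate early or stress genes left out) added after the data were seen. For the 14 ratios past 2-fold in the 6 main classes there were 126 values, of which 98 stayed past 2-fold and 28 came within it with the same sign. The 9 ratios past 2-fold in other classes kept their sign wherever there were 50 UMIs. The counts of guidance genes at least 2-fold higher or lower in 6 classes gave 116 values, of which 69 were the same, 47 moved and 0 reversed. Each moved count is given of the genes tested, with the percentage of all genes called the same way under that setting in brackets. Of 746 levels in the class highest for each gene, 634 were the same and 112 moved. With at most 5% mitochondrial UMIs the counts were 1 of 30 higher [2.43%] and 4 of 30 lower [4%] (ALMF), 0 of 37 higher [1.97%] (alveolar), 1 of 37 higher [1.98%] and 2 of 37 lower [0.767%] (adventitial) and 1 of 39 lower [0.948%] (AT2). Without the cells with the highest doublet scores (8.73% and 9.69% of the libraries) they were 1 of 33 higher [2.82%] (ALMF), 3 of 36 higher [2.73%] and 1 of 36 lower [2.27%] (DMF), 0 of 32 higher [2.33%] and 2 of 32 lower [1.74%] (alveolar), 1 of 35 higher [1.76%] (adventitial), 1 of 14 higher [1.92%] (pericyte) and 1 of 39 lower [0.925%] (AT2). A total without mitochondrial, haemoglobin and surfactant protein genes gave 1 of 39 lower [1.21%] (AT2). A median-of-ratios size factor gave 1 of 39 lower [0.985%] (AT2). The mean over cells gave 2 of 35 lower [2.8%] (alveolar) and 2 of 24 higher [2.53%] (pericyte). At clustering resolution 0.5 they were 0 of 30 higher [2.2%] and 8 of 30 lower [4.24%] (ALMF), 1 of 37 higher [3.15%] (DMF), 0 of 36 higher [2.16%] (alveolar) and 0 of 39 higher [1.84%] and 2 of 39 lower [1.31%] (adventitial). With each library clustered on its own they were 0 of 29 higher [1.91%] (ALMF), 2 of 37 higher [2.7%] and 1 of 37 lower [2.26%] (DMF), 1 of 37 higher [1.82%] and 3 of 37 lower [2.09%] (alveolar), 3 of 37 lower [1.89%] (adventitial), 3 of 18 higher [3.7%] (pericyte) and 1 of 39 lower [0.975%] (AT2). With the guidance genes and wider list left in the clustering they were 0 of 30 higher [2.69%] and 5 of 30 lower [6.61%] (ALMF), 2 of 40 higher [3.35%] (DMF), 1 of 21 higher [2.3%] (pericyte) and 1 of 39 lower [0.985%] (AT2). A minimum of 20 UMIs gave 1 of 45 higher [4.22%] (DMF), 2 of 38 lower [2.29%] (adventitial), 1 of 34 higher [3.4%] and 3 of 34 lower [1.8%] (pericyte) and 1 of 48 higher [2.39%] and 1 of 48 lower [1.72%] (AT2). Summing ALMF-like and DMF-like cells gave 2 of 42 higher [3.41%] (DMF). Without clusters led by immediate early or stress genes they were 1 of 31 higher [3.52%] (ALMF) and 3 of 36 higher [2.67%] and 1 of 36 lower [2.28%] (DMF). The cause was not tested. No paired analysis was possible because there is 1 mouse per group. Free RNA was not removed, and *Sftpc*, an AT2 gene, stood at 2353 CPM in DMF-like cells of the control and 1196 CPM in those of *Gli1 HHIPCKO*. In the same order it was far higher in ciliated-like (43515 and 46706 CPM) and red cell-like cells (35273 and 40745.5 CPM). Immune-like cells had 25908 and 2590 CPM and Schwann-like cells 17635 and 73941 CPM. What such carry-over does to levels and ratios in these classes was not tested. Genes with under 50 UMIs in a class were not compared there.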
